A study of Mus musculus with 6 samples.

Results

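Macrophages of the cochlea were followed through 10 genes, each found by its symbol among the 24411 gene symbols of the deposited counts. The genes were listed as resident macrophage, complement C1q and phagocytosis genes, and all 10 listed symbols were in the files. They comprise the receptors Cx3cr1, Csf1r and P2ry12, the phagocytic receptor Trem2 with its adaptor Tyrobp, the markers Aif1 and Cd68, and the C1q chains C1qa, C1qb and C1qc. RNA came from the cochlear sensory epithelium of mice at postnatal day 9 (P9), with 3 Kir2.1-OE and 3 control libraries. Kir2.1-OE mice carried 1 copy of Otof-rtTA, in which the Otof promoter, active in hair cells, drives the doxycycline-dependent activator rtTA, and 1 copy of a tetO-Kir2.1-IRES-tau-lacZ transgene, while their littermate controls carried Otof-rtTA alone. Both groups were on the C57BL/6N background. Both were under doxycycline (DOX), which the study gave to pregnant and nursing females in their drinking water. The activator and the drug were thus shared and the transgene was not. Kir2.1 is an inward rectifier K+ channel that holds the membrane potential negative, and here it was driven from a hair cell promoter. Each library was made from 1 pool of 8 cochleae from 4 mice, so the replicate is a pool and no value belongs to a single animal.

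Resident macrophages live among the sensory, supporting and neural tissue of the cochlea, survive on signals through the CSF1 receptor and read the neuronal chemokine fractalkine through CX3CR1. They take up debris through receptors such as TREM2, which signals through the adaptor TYROBP and the kinase SYK, and they degrade it in lysosomes, where CD68 resides. They are also a main tissue source of C1q, the recognition molecule of the classical complement pathway, which is built from the A, B and C chains and tags synapses and dying cells for removal. In bulk RNA, fewer macrophages and less RNA per macrophage cannot be told apart.

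The C1q chains are encoded side by side on the minus strand of chromosome 4, with C1qa at chr4:136895917-136898803, C1qc at chr4:136889804-136893065 and C1qb at chr4:136880129-136886187 (mm10). Promoter windows from RefSeq (GRCm38.p6), from 250 bases before to 50 bases after the start, were at hand for 7 of the 10 genes, namely Cx3cr1, P2ry12, Trem2, Aif1, Cd68, C1qb and C1qc. They were searched on both strands for GAGGAA, the core letters of the purine-rich element bound by PU.1, the macrophage transcription factor encoded by Spi1, and for the longer GAGGAAGT, which contains it. GAGGAA was found in 5 of the 7 windows (Trem2, Aif1, Cd68, C1qb and C1qc), while 28.3% of the 32851 promoter windows of the mouse genome held it. GAGGAAGT was found in 1 of the 7, that of C1qc, and in 3.20% of all windows. These matches are a description of the letters and not of binding. The stretches below are shown because they hold a match upstream of every annotated exon. They are written 5′ to 3′ on the strand of the gene, with capitals marking GAGGAA or its reverse complement TTCCTC. They lie at chr4:136886201-136886300 (minus strand) for C1qb, chr4:136893066-136893164 (minus strand) for C1qc, chr11:69666321-69666420 (minus strand) for Cd68 and chr17:48346301-48346400 (plus strand) for Trem2.
C1qb: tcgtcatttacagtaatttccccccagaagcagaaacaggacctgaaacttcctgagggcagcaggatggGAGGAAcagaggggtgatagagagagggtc
C1qc: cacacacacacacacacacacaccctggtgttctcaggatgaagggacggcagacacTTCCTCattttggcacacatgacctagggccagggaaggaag
Cd68: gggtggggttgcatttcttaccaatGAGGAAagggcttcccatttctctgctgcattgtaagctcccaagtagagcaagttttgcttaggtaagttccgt
Trem2: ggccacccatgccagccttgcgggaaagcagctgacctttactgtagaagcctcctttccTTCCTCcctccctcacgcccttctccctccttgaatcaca

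In C1qb the match lay 30 to 25 bases before the start, close to where transcription begins, and in Trem2 it lay 40 to 35 bases before it on the opposite strand. Counted from the RefSeq start, the matches of C1qc, at 193 to 188 bases, and of Cd68, at 225 to 220 bases, lay farther upstream. For C1qc this depends on the start used. The annotated C1qc gene begins at chr4:136893065 on the minus strand, directly after the printed stretch, which ends at chr4:136893066. From that start the C1qc match lies closer, so its contrast with C1qb and Trem2 does not hold for both starts. Cd68 had a second match on the opposite strand, 30 to 35 bases after the start. The match of Aif1, at 7 to 2 bases before the RefSeq start, falls inside an annotated exon and is not printed. Spi1 itself had 168.7 ± 20.2 (SD, n = 3) normalized counts in controls and 195.3 ± 16.2 (SD, n = 3) in Kir2.1-OE, a difference of 0.21 on the log2 scale that did not pass the test (adjusted p = 0.275, Benjamini-Hochberg over all genes, edgeR's quasi-likelihood test).

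All 6 libraries were of similar depth, between 35430940 and 41205047 reads assigned to genes. Kcnj2, the gene that encodes Kir2.1, checked the labels: it lay between 2213 and 3813 normalized counts in the Kir2.1-OE pools and between 226.0 and 235.8 in the control pools. Over all 15303 genes tested, 15.5% were called higher and 5.08% lower in Kir2.1-OE, where called means an adjusted p under 0.05 together with a fold change above 1.5. The groups did not overlap in 61.6% of genes, and 50.8% passed the adjusted p at any fold, so a difference of these kinds is common in these libraries. Fold changes also followed transcript length across all genes. The median log2 fold change rose with each length class, from -0.50 for transcripts under 1000 nt to 0.84 for those of 8000 nt or more. The 10 genes have transcripts between 564 and 3870 nt, and each is set beside its length class further on.

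None of the 10 macrophage and complement genes was called in Kir2.1-OE. All 10 passed the filter on low counts and were tested, and 0 of 10 were called higher and 0 of 10 lower, beside 15.5% and 5.08% of all genes tested. Without the fold threshold, 3 of the 10 differed at an adjusted p under 0.05, Csf1r and Cx3cr1 being higher and C1qa lower in Kir2.1-OE, beside 50.8% of all genes. The groups did not overlap for 4 of the 10, with Csf1r and Cd68 higher and C1qa and C1qc lower, beside 61.6% of all genes. The 3 were also those with an unadjusted p under 0.05 in edgeR, and DESeq2's Wald test called 0 of 10 as well. The 10 genes had a median log2 fold change of -0.02, and all genes tested one of 0.01. All log2 fold changes below are Kir2.1-OE against control, and normalized counts are the counts scaled to the mean library.

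**Figure D1:**
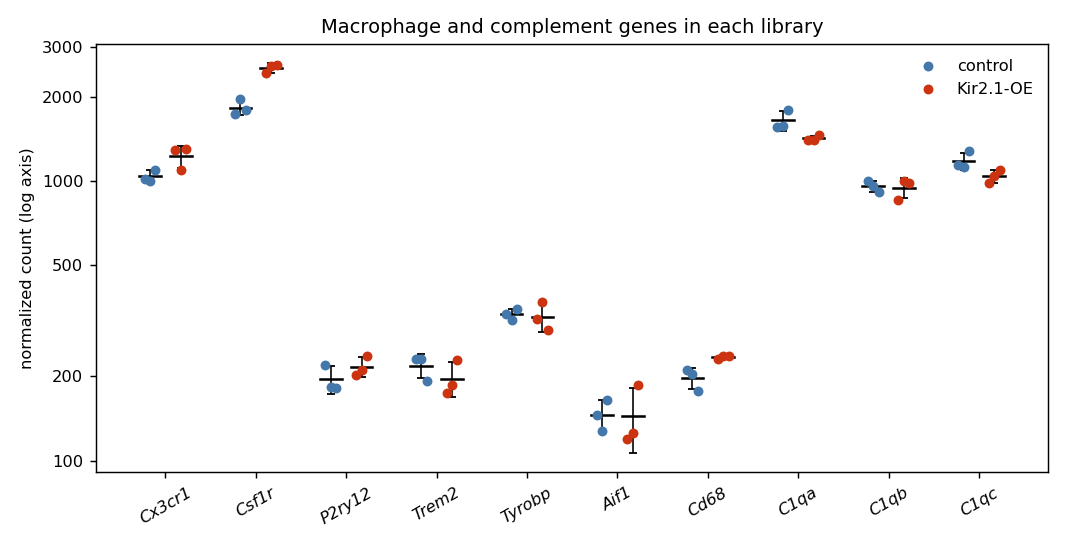
Normalized counts (log axis) of the 10 macrophage and complement genes in each of the 3 control (blue) and 3 Kir2.1-OE (red) libraries; horizontal bars are means and whiskers 1 SD. Csf1r sits at 2423 to 2593 in Kir2.1-OE against 1738 to 1954 in controls, while C1qa sits lower in Kir2.1-OE and the groups of Tyrobp, Aif1 and C1qb overlap.

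Of the receptor genes, Csf1r differed most. Csf1r, the receptor tyrosine kinase through which CSF1 and IL-34 maintain macrophages, had 2423, 2582 and 2593 normalized counts in Kir2.1-OE replicates 1, 2 and 3 and 1738, 1954 and 1794 in control replicates 1, 2 and 3. Every Kir2.1-OE pool was above every control pool. The means were 2533 ± 94.9 and 1828 ± 112 (SD, n = 3 each), a log2 fold change of 0.47 (SE 0.0721), or 38.5% higher with a 95% interval of 23.8% to 55.0% (adjusted p = 7.716e-04, Benjamini-Hochberg over all genes, edgeR's quasi-likelihood test). With any 1 library left out, the adjusted p of Csf1r was 0.00116 to 0.00490 (edgeR). It was the largest difference among the 10 genes and lay under the fold threshold of 1.5. Csf1r (chr18:61100598-61132149, plus strand) shares 873 of its 5774 exon bases with Hmgxb3 on the opposite strand, and without a stated strand setting the reads of those bases cannot be assigned to either gene. Hmgxb3 had 1188 ± 33.1 normalized counts in controls and 1536 ± 103 in Kir2.1-OE (SD, n = 3 each).

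Cx3cr1, the fractalkine receptor (chr9:119901616-120069879, minus strand), had 1285, 1096 and 1295 normalized counts in Kir2.1-OE and 1017, 996.8 and 1097 in controls. Kir2.1-OE replicate 2 lay within the control range, next to control replicate 3, so the groups overlapped by that pair. Its log2 fold change was 0.24 (SE 0.0892), 18.2% higher with a 95% interval of 2.8% to 35.8%, and the adjusted p of 0.0471 was just under the threshold (edgeR's quasi-likelihood test). Of the 6 fits that left out a single library, only that without Kir2.1-OE replicate 2 kept Cx3cr1 under the threshold (adjusted p = 0.0299), and the others gave 0.0544 to 0.155. Cx3cr1 shares 78 exon bases with the antisense gene Gm33858. P2ry12, a purinergic receptor for ADP that guides macrophage processes to sites of damage (chr3:59216272-59262871, minus strand), had 202.2, 210.9 and 235.9 in Kir2.1-OE and 220.7, 183.5 and 182.2 in controls. The P2ry12 groups overlapped, and its log2 fold change of 0.15 had a 95% interval of -0.18 to 0.47 (adjusted p = 0.430, edgeR).

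Trem2 and Tyrobp, which encode a lipid-sensing phagocytic receptor and the adaptor it needs to signal, gave no detectable difference. Trem2 (chr17:48346401-48354147, plus strand) had 174.5, 186.9 and 228.5 normalized counts in Kir2.1-OE and 230.8, 230.8 and 193.4 in controls, and each group had a pool within the range of the other. Its log2 fold change was -0.15 with a 95% interval of -0.50 to 0.20 (adjusted p = 0.445, edgeR). Tyrobp (chr7:30413760-30417585, plus strand) had 320.2, 368.7 and 292.0 in Kir2.1-OE and 334.1, 317.1 and 349.1 in controls, so that the control pools lay within the Kir2.1-OE range. The log2 fold change of Tyrobp was -0.03, and its 95% interval of -0.31 to 0.25 leaves room for a change of that size in either direction (adjusted p = 0.872, edgeR). The ratio of Trem2 to Tyrobp counts was 0.658 ± 0.0916 in controls and 0.611 ± 0.150 in Kir2.1-OE (SD, n = 3 each), and the groups overlapped.

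Aif1 and Cd68 are the genes of the proteins most often stained to find macrophages, the actin-binding protein IBA1 and a lysosomal glycoprotein. Aif1 (chr17:35170991-35176068, minus strand) had 119.1, 125.9 and 187.2 normalized counts in Kir2.1-OE and 145.5, 127.2 and 164.9 in controls. Kir2.1-OE replicate 3 was the highest pool of all and the other Kir2.1-OE pools the lowest, so Aif1 had the widest interval of the 10 genes, -0.49 to 0.46 around a log2 fold change of -0.02 (adjusted p = 0.951, edgeR). Cd68 (chr11:69664213-69666153, minus strand) had 230.9, 236.8 and 237.0 in Kir2.1-OE and 210.7, 203.5 and 178.1 in controls. All 3 Kir2.1-OE pools were above all 3 control pools, but the log2 fold change of 0.25 had a 95% interval of -0.05 to 0.55 and Cd68 did not pass the test (adjusted p = 0.142, edgeR).

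The C1q genes lay at or below the control level. C1qa had 1402, 1405 and 1454 normalized counts in Kir2.1-OE and 1564, 1571 and 1796 in controls, with every Kir2.1-OE pool below every control pool. The C1qa means were 1420 ± 28.9 and 1644 ± 132 (SD, n = 3 each), a log2 fold change of -0.21 with a 95% interval of -0.39 to -0.04 (adjusted p = 0.0467, edgeR's quasi-likelihood test). Leaving out control replicate 3, the highest pool, brought C1qa to -0.14 (adjusted p = 0.192), and only without control replicate 1 was it still under the threshold (adjusted p = 0.0493, edgeR). C1qc had 980.2, 1045 and 1090 in Kir2.1-OE and 1135, 1120 and 1276 in controls, again without overlap, and its log2 fold change of -0.18 (95% interval -0.37 to 0.01) did not pass the test (adjusted p = 0.0991, edgeR). C1qb, the third chain, had 854.0, 999.3 and 980.6 in Kir2.1-OE and 995.3, 959.5 and 912.0 in controls. Its groups overlapped, with Kir2.1-OE replicates 1 and 2 as the lowest and highest pools, and its log2 fold change was -0.02 (95% interval -0.21 to 0.18, adjusted p = 0.890, edgeR).

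The shares of the 3 C1q chains did not separate the groups. C1qa gave 43.5% ± 1.42 of the C1q counts in controls and 41.8% ± 1.37 in Kir2.1-OE, C1qb 25.4% ± 2.17 and 27.7% ± 1.29, and C1qc 31.2% ± 0.772 and 30.5% ± 0.362 (SD, n = 3 each), and the groups overlapped for each chain. The summed C1q count was 3776 ± 181 in controls and 3403 ± 149 in Kir2.1-OE, whose pools lay between 3236 and 3524, all below the control range of 3651 to 3984. Csf1r and Cx3cr1 differed from C1qa in direction in the fit without offsets, and their ratios to C1qa separated the groups, beside 61.6% of single genes. Csf1r to C1qa was 1.12 ± 0.123 in controls and 1.78 ± 0.0547 in Kir2.1-OE, and Cx3cr1 to C1qa was 0.632 ± 0.0198 and 0.863 ± 0.0724 (SD, n = 3 each). C1qc to C1qa was 0.717 ± 0.00785 and 0.731 ± 0.0277, and C1qb to C1qa was 0.585 ± 0.0680 and 0.665 ± 0.0518, with overlapping groups in both. These ratios compare a long transcript with a short one in the case of the receptors, and transcripts of nearly the same length among the C1q chains. With the length and GC offsets given further on, from the curated transcript, Csf1r was at 0.17, Cx3cr1 at 0.07 and C1qa at 0.03 (log2). Their directions were then no longer opposite, and the ratios were not formed with offsets. An exact permutation test of 3 pools against 3 cannot go below 0.10, so no test of a single ratio was made.

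**Figure D2:**
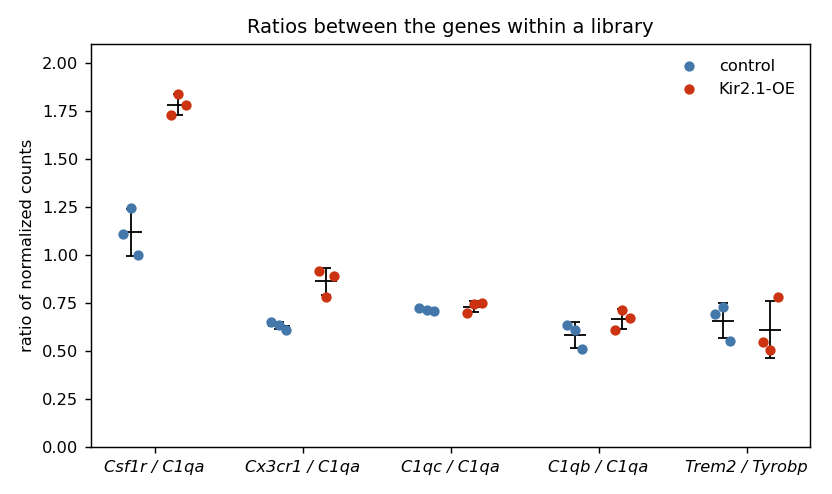
Ratio of the normalized counts of 2 genes within each library for the 3 control (blue) and 3 Kir2.1-OE (red) pools; bars are means and whiskers 1 SD. Csf1r / C1qa and Cx3cr1 / C1qa lie apart between the groups, at 1.12 against 1.78 and 0.632 against 0.863, whereas the ratios among the C1q chains and Trem2 / Tyrobp overlap.

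Per kilobase of transcript, the order of the genes changed, because the receptor transcripts are the longest. C1qa was then the highest in controls, at 1580 normalized counts per kilobase, followed by C1qc at 978.5 and C1qb at 878.3, and the mean of C1qa over all libraries was at percentile 87.0 of the genes tested. Tyrobp came next at 591.2, then Csf1r at 472.4 and Cx3cr1 at 276.3. Trem2 (200.7), Aif1 (166.7) and Cd68 (160.5) were close together in normalized counts per kilobase, within the spread of the pools of neighbouring genes, and P2ry12 was the lowest at 86.9, at percentile 28.1. In Kir2.1-OE the mean of Csf1r, at 654.5, was above that of Tyrobp, at 579.8, though their pools overlapped, and C1qb (868.2) and C1qc (863.1) were level.

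Because the fold changes of all genes followed transcript length, each of the 10 was set beside the genes of its own length class. All 10 lay above the median log2 fold change of that class, which is a description without a test. Among all genes of a class, as many lie above its median as below. On the lists below, 5 of 5 ligand genes and 6 of 6 endothelial markers also lay above their class medians. So did 9 of 10 TYROBP and TREM2 signalling genes, 20 of 23 activation genes and 31 of 46 other macrophage genes. Complement (18 of 27), microglia-enriched (7 of 12), glia (5 of 6) and hair cell genes (5 of 8) did so in part. Most phagocytosis genes (16 of 36 above), erythroid (1 of 7), neutrophil (1 of 6) and mast cell markers (1 of 4) did not. Lying above the class median was thus shared with some lists of other cell types but not with all. The short transcripts Tyrobp (-0.03) and Aif1 (-0.02) belong to the class under 1000 nt, whose median was -0.50. The 5 genes of 1000 to 1500 nt, where the median was -0.35, ranged from -0.21 for C1qa to 0.25 for Cd68. P2ry12, at 0.15, lay in a class with a median of -0.08, and Cx3cr1 and Csf1r, at 0.24 and 0.47, in one with a median of 0.07. The lower C1qa and C1qc were thus less low than most transcripts of their length, and Csf1r was higher than most of its own.

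**Figure D3:**
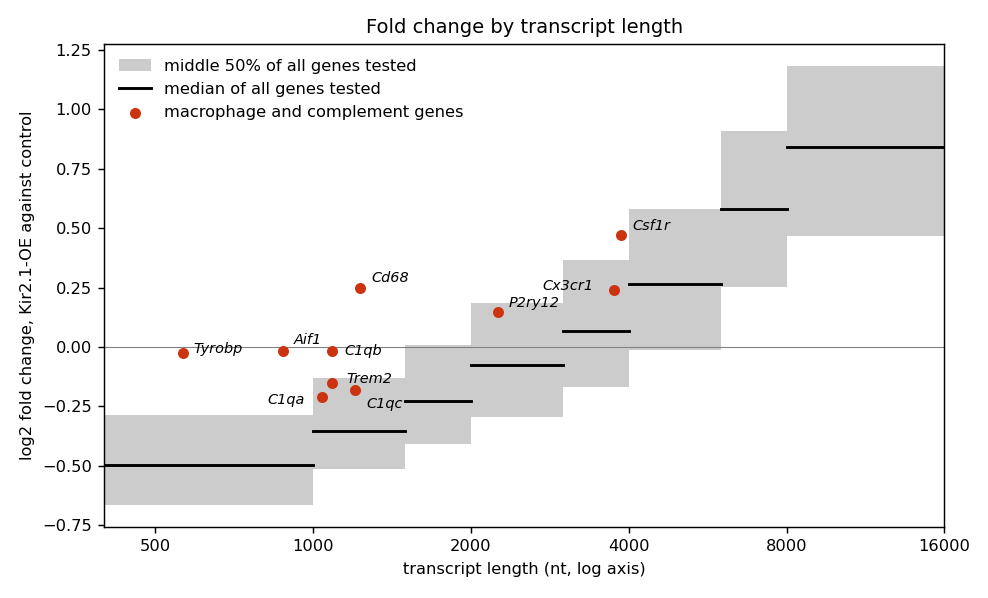
Log2 fold change of Kir2.1-OE against control by transcript length (log axis) for all genes tested, as the median (black line) and middle 50% (grey) of each length class, with the 10 macrophage and complement genes in red. The class medians climb from -0.50 to 0.84, and each of the 10 genes lies above the median of its class.

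When the trends with length and GC content were entered as offsets, built on the longest curated RefSeq transcript of each gene, no gene of the 10 was called either (0 of 10, beside 9.06% of all genes in either direction). With these offsets, an alternative chosen after seeing the data, a different set passed the adjusted p at any fold: Tyrobp at 0.46 (adjusted p = 0.0190), Cd68 at 0.54 (adjusted p = 0.0142) and C1qb at 0.25 (adjusted p = 0.0400), all higher, in edgeR's quasi-likelihood test. This was 3 of 10 beside 33.0% of all genes, and 5 of the 10 had an unadjusted p under 0.05, these 3 with P2ry12 and Csf1r. The 3 genes that had passed without offsets no longer did, with log2 fold changes of 0.17 for Csf1r (adjusted p = 0.0863), 0.07 for Cx3cr1 (adjusted p = 0.546) and 0.03 for C1qa (adjusted p = 0.765). Of the others, P2ry12 (0.38), Aif1 (0.39), Trem2 (0.11) and C1qc (0.05) did not pass. The planned offsets from the longest transcript called 0 of 10 as well, and 5 of 10 passed the adjusted p at any fold, beside 34.8% of all genes (edgeR). These were Tyrobp, C1qb, Cd68 (0.55, adjusted p = 0.0126) and P2ry12 (0.40, adjusted p = 0.0466), all higher, and Trem2 (-0.48, adjusted p = 0.0385), lower, while Csf1r was at 0.05 (adjusted p = 0.630). The longest transcript of Trem2 is much longer than its curated one (4784 against 1088 nt), which is why the curated transcript was tried. With the curated offsets the median of the 10 genes became 0.21 and that of all genes -0.06, and the sign of Trem2, Tyrobp, Aif1, C1qa, C1qb and C1qc turned from negative to positive, so none of these 6 had a direction that held with and without these offsets. Whether the length trend arose in the libraries or in the cells was not tested.

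**Figure D4:**
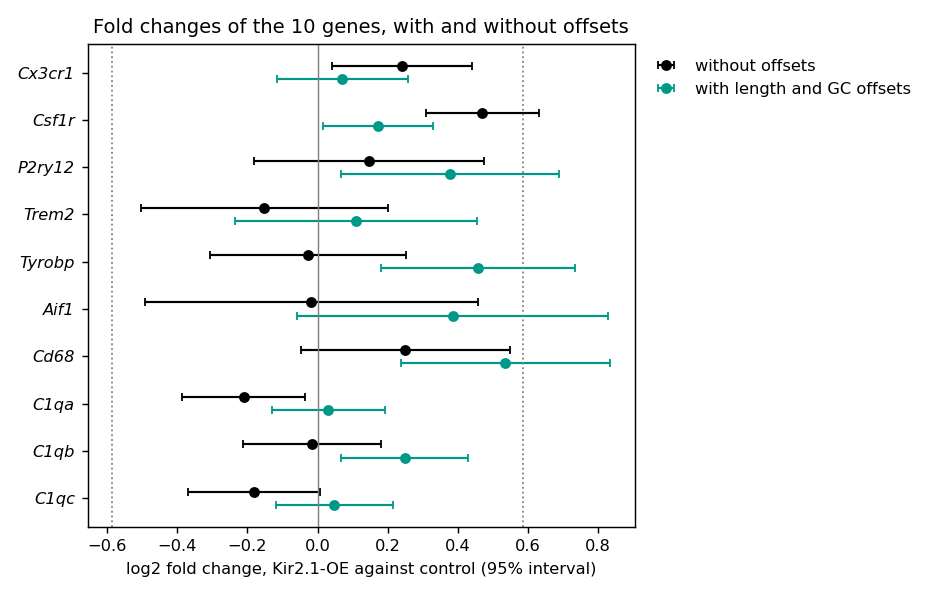
Log2 fold change of each gene with its 95% interval, without offsets (black) and with length and GC offsets from the curated transcript (green); dotted lines mark a fold of 1.5 in either direction. Csf1r moves from 0.47 to 0.17 and Tyrobp from -0.03 to 0.46, and no gene is called in either fit.

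Among pools of the same group, the 10 genes had correlations of both signs with the mean of the others. These rest on 6 centred values, too few to show whether the genes vary together. After the group means were removed, Aif1 correlated best with the mean of the other 9 genes over the 6 libraries (Pearson r = 0.76), followed by P2ry12 (0.58), C1qc (0.54), C1qb (0.52) and Trem2 (0.51). C1qa (0.17), Csf1r (0.05), Cx3cr1 (0.02) and Cd68 (-0.05) showed little relation to the rest, and Tyrobp ran the other way (-0.51). The mean deviation of the 10 genes was highest in Kir2.1-OE replicate 3, at 0.083 on the log2 scale, and lowest in Kir2.1-OE replicate 1, at -0.073. The genes whose deviations were most like that mean, of 13635 compared, were Ccl27a, Mrpl50 and Wbp5 (each r = 0.998) and Sgtb and Ngrn (each r = 0.997), over 6 libraries that share depth and preparation. None of these 5 is on the macrophage lists used here. Picking the closest 5 of 13635 genes over 6 libraries favours very high r, so the likeness is a description and was not tested.

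The ligands of these receptors were measured in the same pools. Csf1, the ligand of CSF1R, was called higher in Kir2.1-OE, with 301.0, 410.7 and 330.8 normalized counts in controls and 626.1, 496.7 and 520.5 in Kir2.1-OE, a log2 fold change of 0.66 (adjusted p = 0.00450, edgeR). The second CSF1R ligand, Il34, did not differ detectably (329.0 ± 68.7 against 334.8 ± 13.2, SD, n = 3 each, log2 fold change 0.03, adjusted p = 0.904, edgeR). Cx3cl1, which encodes fractalkine, was 0.34 higher on the log2 scale (adjusted p = 0.0120, edgeR) and below the fold threshold. Of the TREM2 ligands, Clu was 0.53 higher (adjusted p = 0.00625, edgeR) and Apoe 0.14 higher without passing the test (adjusted p = 0.277, edgeR). With the curated offsets the log2 fold change of Csf1 was 0.28 (adjusted p = 0.108) and that of Clu was 0.63 (adjusted p = 0.00653), so Clu and not Csf1 was called, and Cx3cl1 was at 0.06 (adjusted p = 0.667, edgeR).

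Downstream of TREM2 and TYROBP, 1 of 10 signalling genes tested was called higher and 0 lower, beside 15.5% and 5.08% of all genes. This was Plcg2, the phospholipase that acts after SYK, at 263.3 ± 48.8 normalized counts in controls and 399.7 ± 49.0 in Kir2.1-OE (log2 fold change 0.60, adjusted p = 0.0111, edgeR). The median of the list was 0.44. Pik3ap1, an adaptor to PI3 kinase, was 0.46 higher (adjusted p = 0.00155, edgeR) and below the fold threshold, and Ptpn6, an inhibitory phosphatase, had 0.15 (adjusted p = 0.260). None of the 10 signalling genes was called with the curated offsets, where Plcg2 was at 0.20.

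A wider list of 46 macrophage genes, all of them tested, held 6 called higher and 2 called lower, with a median log2 fold change of 0.13. These are 6 and 2 of 46 beside 15.5% and 5.08% of all genes. The highest was Runx1, a transcription factor of blood and other tissues, at 330.2 ± 9.92 normalized counts in controls and 649.2 ± 64.7 in Kir2.1-OE (0.98, adjusted p = 1.911e-04, edgeR). Among the others called higher, named because they passed, were Mpeg1, Stab1, Mertk and Clec12a, between 0.59 and 0.85. Those called lower were Pf4, a chemokine gene also carried by platelets, at -0.72 (adjusted p = 0.00341) and Cyba, a subunit of the NADPH oxidase, at -0.70 (adjusted p = 3.192e-04). The most abundant of the list did not pass the test: the growth factor gene Grn was at 0.01 on the log2 scale and the lysosomal protease gene Lgmn at -0.11. Core markers were present in every library, among them Adgre1 (625.1 ± 40.8 in controls and 560.6 ± 64.2 in Kir2.1-OE) and Ptprc, the pan-leukocyte gene (82.3 ± 3.60 and 99.97 ± 16.5; SD, n = 3 each). Of other such markers, Lyz2 was 0.43 higher (adjusted p = 0.0281) and Mrc1 0.34 higher (adjusted p = 0.00953), both below the fold threshold (edgeR). Itgam (0.21, adjusted p = 0.3445), Fcgr1 (-0.04, adjusted p = 0.887), Adgre1 (-0.16, adjusted p = 0.258) and Ptprc (0.28, adjusted p = 0.260) did not pass the test. Of the 46, 2 were called higher (Clec12a and Lyz2) and 0 lower with the curated offsets, with Lyz2 at 0.75 (adjusted p = 0.00520, edgeR).

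Of 12 genes enriched in microglia, the macrophages of the brain, 2 were called higher (Sall1 and Hpgds) and 0 lower, beside 15.5% and 5.08% of all genes, with a median of -0.03. Siglech, among the most restricted of them, was near 0, with 2.04 to 9.09 normalized counts in controls and 11.6 to 16.4 in Kir2.1-OE. Tmem119, in contrast, had 4722 ± 1347 and 4758 ± 383 (SD, n = 3 each), and it is known in bone-forming and other mesenchymal cells as well. Sall1, a transcription factor of many tissues, rose from 2786 ± 180 to 4435 ± 570 (0.67, adjusted p = 6.822e-04, edgeR), and Olfml3 had a log2 fold change of -0.52 (adjusted p = 6.363e-04), below the fold threshold. With the curated offsets 1 of the 12 was called higher (Hpgds) and 1 lower (Olfml3, -1.05, adjusted p = 4.786e-04), and Sall1 was at 0.19 (adjusted p = 0.143, edgeR).

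Beyond C1q, 27 of 42 complement pathway genes could be tested, of which 3 were called higher and 0 lower, beside 15.5% and 5.08% of all genes, with a median of 0.14. The 3 were C4b, a classical pathway component cleaved by the C1 complex (170.1 ± 31.1 to 276.0 ± 53.5 normalized counts, 0.70, adjusted p = 0.0131), the receptor gene Cd93 (991.1 ± 163 to 1927 ± 106, 0.96, adjusted p = 2.710e-04), and Itgax, a receptor chain at low counts (5.13 ± 2.77 to 18.8 ± 4.72, 1.84, adjusted p = 0.0118; SD, n = 3 each, edgeR). Cd93 is also an endothelial gene, and endothelial markers moved with it: 5 of 6 were called higher, and their summed normalized count was 2853 to 4035 in controls and 5663 to 6158 in Kir2.1-OE. Of these 6, 1 was called with the curated offsets (Cdh5), and Cd93 was no longer called, at 0.45. The part of endothelial cells in the Cd93 value was not tested. C2, which joins C4b in the C3 convertase, was 0.53 higher (adjusted p = 0.00137, edgeR) and below the fold threshold, and C3 itself was barely detected, at 1.02 to 9.99 normalized counts in controls and 12.7 to 16.4 in Kir2.1-OE. Cr1l, a membrane inhibitor, had the lowest value among the well-counted genes, at -0.49 (adjusted p = 0.00124, edgeR). Masp2, Mbl1 and Mbl2 of the lectin pathway had 0 counts in all 6 libraries, which allows a share of up to 8.47e-06% of the assigned reads in the shallowest library, a limit that covers counting error only. With the curated offsets 2 complement genes were called higher, Itgax and Clu, so that C4b, at 0.09, and Cd93 lost their calls.

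Phagocytosis genes, most of which other cochlear cells use as well, had 10 of 36 called higher and 1 called lower, beside 15.5% and 5.08% of all genes, with a median of 0.04. The highest was Lrp1, a scavenger receptor with one of the longest transcripts of the list, which rose from 7666 ± 536 to 18430 ± 2159 normalized counts (1.27, adjusted p = 1.195e-04, edgeR). The one called lower was Gpnmb, a lysosomal and melanosomal glycoprotein gene, with 159.5, 117.2 and 67.2 in controls and 39.0, 48.0 and 42.3 in Kir2.1-OE (-1.41, adjusted p = 0.00497, edgeR). The most abundant, the cathepsin genes Ctsb and Ctsd, were at 0.06 and 0.05 and did not pass the test. The median transcript of this list was 4212 nt against 3046 nt for all genes. With the curated offsets 0 were called higher and 2 lower, Gpnmb (-1.57) and Npc2 (-0.62, adjusted p = 0.0010, edgeR). Lrp1 was at -0.06 with these offsets and was not called.

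Genes of macrophage activation were 23 of 31 tested, with 4 called higher and 2 lower, beside 15.5% and 5.08% of all genes, and a median of 0.46. Those called higher, named because they passed, were the prostaglandin synthase Ptgs2 (0.91, adjusted p = 0.0405), Tgfb1 (0.61, adjusted p = 0.00174), the lipase gene Lpl (0.70, adjusted p = 0.0158) and again Itgax, and those called lower were Gpnmb and the tetraspanin gene Cd63 (-0.67, adjusted p = 0.00117; edgeR). Of the most abundant, Cd9 was at -0.19 (adjusted p = 0.0552) and Apoe has been given above. The interferon-induced Isg15 had the highest value of the well-counted genes, 1.23, but its Kir2.1-OE pools spread widely, at 213.8 ± 180 against 90.9 ± 31.4 in controls (SD, n = 3 each), and it did not pass the test (adjusted p = 0.0835, edgeR). With the curated offsets Isg15 was called (1.69, adjusted p = 0.0422), as was Spp1 (0.88, adjusted p = 0.0289), while Ptgs2 (adjusted p = 0.0582), Tgfb1 (0.45) and Cd63 (-0.36) lost their calls, which left 4 higher and 1 lower.

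**Figure D5:**
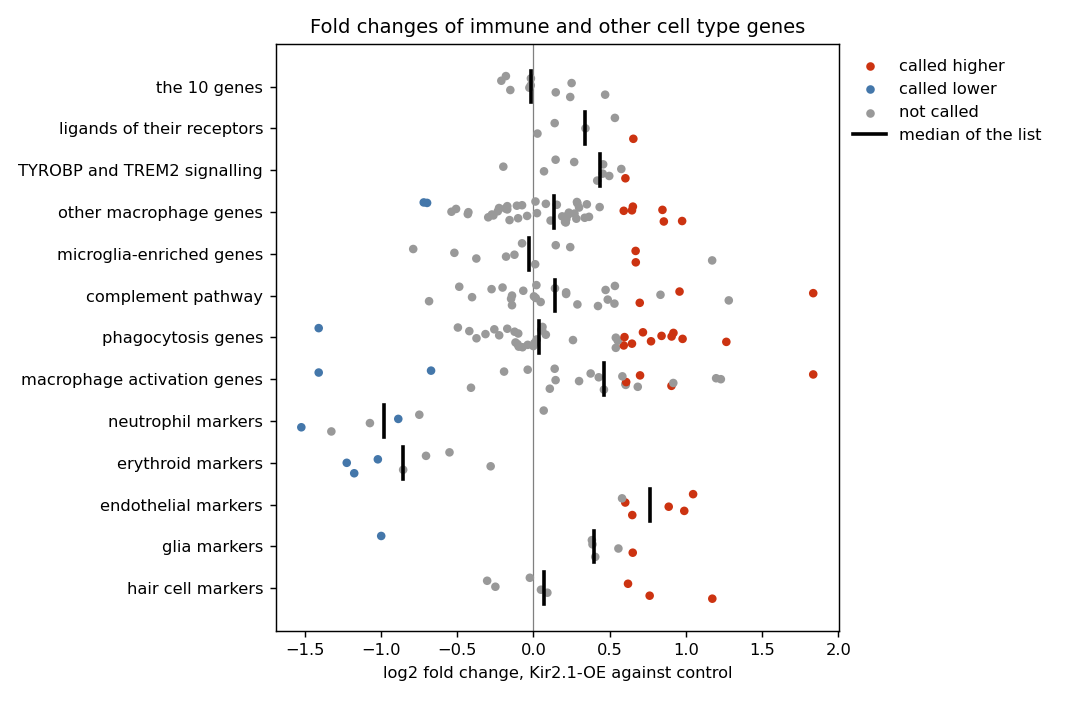
Log2 fold change of each tested gene in the lists of macrophage, complement and other cell type genes; red points were called higher, blue points lower and grey points not called (fit without offsets), and the black bar is the median of the list. The 10 genes lie between -0.21 and 0.47 with none called, while neutrophil and erythroid markers lie mostly below 0 and endothelial markers above it.

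Markers of other blood cells were counted in the same pools, and most of the calls among them were lost with the curated offsets. Over all genes 15.5% were called higher and 5.08% lower, and 9.06% in either direction with the curated offsets. The median log2 fold change of each of these lists kept its sign with the offsets. It went from -0.98 to -0.715 for neutrophil markers and from -0.855 to -0.747 for erythroid markers. The summed count of 9 neutrophil markers was 213.8 to 578.9 in controls and 133.9 to 245.3 in Kir2.1-OE, and 2 of 6 tested were called lower, S100a9 (-1.52, adjusted p = 0.0300) and Camp (-0.89, adjusted p = 0.00274; edgeR), while 0 of 6 were called with the curated offsets. The summed erythroid markers were 18020 to 44950 in controls and 10910 to 13900 in Kir2.1-OE, with 3 of 7 called lower and 1 of 7 with the curated offsets (Alas2). Control replicate 1 carried the high end, with 29800 normalized counts of Hba-a1 against 10560 and 12430 in control replicates 2 and 3, and 92.3 of the neutrophil gene S100a8 against 32.7 and 23.4. Without that library 0 of the 10 macrophage and complement genes were called and Csf1r was at 0.43 (adjusted p = 0.00337, edgeR). The monocyte chemokine receptor Ccr2 was near the detection limit, at 19.4 ± 5.79 and 25.02 ± 6.87, and the fibronectin gene Fn1, which many other cells express, was the only one of 3 monocyte genes called (1.17, adjusted p = 2.796e-04, edgeR), and was not called with the curated offsets (0.35). Lymphocyte markers were low throughout, with a sum of 52.9 to 93.3 in controls and 41.3 to 63.6 in Kir2.1-OE, and 0 of 2 tested called. Of 4 mast cell genes tested, Cma1 was called lower (not so with the curated offsets), while Kit, which melanocytes also express, was 0.44 higher (adjusted p = 0.00201, edgeR) without being called. Ctsk, a protease of osteoclasts and of fibroblasts, was at 0.24 (adjusted p = 0.206), and Nfatc1 was the 1 of 4 osteoclast genes called higher (0.65, adjusted p = 6.445e-04), and was at 0.18 with the curated offsets. The part of these cells in the values of the 10 genes was not tested.

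Glia and hair cell genes, which mark the tissue that the macrophages lie in, also differed between the groups in part. Of 6 glia markers 1 was called higher and 1 lower (Fabp7, -0.999), with a median of 0.40. Of 8 hair cell markers 3 were called higher (Myo7a, Otof and Slc26a5) and 0 lower, with a median of 0.07. Over all genes 15.5% were called higher and 5.08% lower. The other hair cell markers did not pass the test: Ocm (-0.30), Gfi1 (-0.25), Tmc1 (-0.02), Pou4f3 (0.05) and Slc17a8 (0.09). Myo7a and Otof belong to the class of 6000 to 8000 nt, where 48.3% of all genes were called higher. With the curated offsets, 0 of the 6 glia markers and 1 of the 8 hair cell markers (Slc26a5) were called, beside 9.06% of all genes in either direction. The 10 macrophage and complement genes summed to 7732 ± 186 normalized counts in controls and 8280 ± 301 in Kir2.1-OE (SD, n = 3 each). The pools lay between 7591 and 7943 and between 7992 and 8592, so the groups of the sum did not overlap, beside 61.6% of single genes. Csf1r alone, with 1828 against 2533, made up more than the whole difference, since the summed C1q count was lower in Kir2.1-OE. The sum mixes long and short transcripts and was not formed with the offsets. With the curated offsets Csf1r had a log2 fold change of 0.17 (adjusted p = 0.0863, edgeR).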

How the data were processed

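The 6 samples take their genotype and replicate number from the labels. The authors enriched poly(A) RNA, mapped reads to mm10 with the nf-core RNA pipeline and deposited Salmon's expected counts per gene symbol, estimates of reads that need not be whole (6.95% of values were not) and are not divided by length or depth. Tool versions, gene annotation and strand setting are not given in the sources used here.

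After rounding, the whole table of counts was fitted in edgeR 4.0.16 (R 4.3.3): TMM scaling (factors 0.984 to 1.01), filterByExpr with a minimum of 10 counts (15303 genes kept), and the quasi-likelihood test, with p-values adjusted by Benjamini-Hochberg. A call needed an adjusted p under 0.05 and a fold change above 1.5. Intervals are 95%. P-values set the difference between the groups against the spread between pools, which edgeR moderates across all genes. No 2 libraries of a group were alike within sampling noise (chi-square per degree of freedom 16.2 to 32.3). On simulated counts for this comparison, of which the same filter kept 15322 genes, the test called 98% of 200 changed genes and 10 of 15122 unchanged ones. The changes put in were all above the 1.5-fold threshold, with the same spread for every gene and no trend with length. These shares therefore do not speak to smaller changes, such as those of the 10 genes, or to counts that hold such a trend. Symbols were matched to GENCODE vM21 directly (23376) or by an older symbol (668), and 367 were not matched. Per-kilobase levels and length classes used the longest curated RefSeq transcript. The header of the file of control replicate 1 carries the number 4; the label's number was used.

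The 10 genes and all lists were chosen with earlier results of these data known, so no list was tested as a set. Named from each list were the highest and the lowest log2 fold change at a mean of at least 50 normalized counts and the 2 most abundant genes; others were named after their values were seen. Some genes of the lists are not reported here by name. For the likeness between genes, at least 50 counts were also required. The alternatives were other scalings and filters, DESeq2 1.42.0, limma-voom (limma 3.58.1), glmTreat against 0.6, a replicate block, length and GC offsets (loess span 0.4) and each library left out.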

Additional observations from a re-analysis of the deposited data

How the results depend on the processing

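No gene of the 10 was called in either direction under any of the alternatives run, including each library left out. Upper quartile scaling moved the median of all genes from 0.01 to -0.08 (log2) and the share of calls that were higher from 75.2% to 57.9%; of the other macrophage genes it called 3 higher and 4 lower, and of the complement genes 1 lower. With glmTreat against a log2 fold change of 0.6, 1 of the other macrophage genes was called higher and 0 lower, and 1 complement gene higher. Calls over all genes were 2365 higher and 778 lower, 832 and 57 with glmTreat, 904 and 603 with length and GC offsets, and 884 and 502 with the curated offsets.

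The length and GC offsets from the longest transcript moved the median of the 10 genes from -0.02 to 0.15 and called 0 of the other macrophage genes lower. They reversed Cx3cr1 (-0.025), Tyrobp (0.442), Aif1 (0.391), C1qa (0.040), C1qb (0.251) and C1qc (0.054). The longest transcript of Trem2 has 4784 nt, against 1088 nt for the curated one. The offsets from the curated transcript, chosen after seeing the data, gave a median of 0.21, called 2 of the other macrophage genes higher and 0 lower, and reversed Trem2 (0.109), Tyrobp (0.457), Aif1 (0.385), C1qa (0.031), C1qb (0.249) and C1qc (0.048). Cx3cr1, at 0.07, was not reversed there. The cause was not tested.

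Samples of the 2 groups share replicate numbers, but same-numbered samples did not deviate together (r = -0.168, -0.288 and -0.234), so the numbers were not treated as pairs. The replicate block alone gave 2220 genes called higher and 718 lower and 0 of the 10. With it, Cx3cr1 (adjusted p = 0.0726) and C1qa (adjusted p = 0.0865) were no longer under 0.05 in edgeR, and Csf1r was (adjusted p = 0.00425). Offsets from the longest transcript with the replicate block gave a median of 0.15 for the 10 genes, called 3 of the other macrophage genes higher and 0 lower and 1 complement gene higher, and reversed Cx3cr1 (-0.026), Tyrobp (0.436), Aif1 (0.375), C1qa (0.042), C1qb (0.251) and C1qc (0.055).

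When single libraries were left out, log2 fold changes ranged from -0.264 to 0.088 for Aif1, from -0.084 to 0.039 for C1qb and from -0.148 to 0.035 for Tyrobp, all of which changed sign, and the other 7 genes kept theirs. The other macrophage genes called higher numbered 3 to 6 with each library left out, 3 without Kir2.1-OE replicate 2. At 3 pools a group and 145.9 control counts, the interval of Aif1 spans -0.49 to 0.46, so a smaller change was not detectable.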
